A study of Oryza sativa with 3 samples.

Results

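Tonoplast intrinsic proteins (TIPs) are the aquaporins of the vacuole membrane, and their genes were examined in the shoot tip of young rice seedlings. The members were 10 named rice genes, TIP1-1, TIP1-2, TIP2-1, TIP2-2, TIP3-1, TIP3-2, TIP4-1, TIP4-2, TIP4-3 and TIP5-1, taken by symbol or synonym from probe sets that the platform annotation pairs with 1 gene. Of these, 9 matched a gene and 8 of the 9 had such a probe set, 11 probe sets in all, out of 17905 genes and 22436 probe sets named in this way. TIP4-3 matched no symbol or synonym, and TIP5-1, whose relative in Arabidopsis is known from pollen, had no probe set paired with it alone, so neither was analysed here under its name. A gene that the tables list by locus number alone could still be TIP4-3.

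RNA came from shoot-tips of the cultivar Hitomebore, a temperate japonica rice, in 3 samples labelled as biological replicates of a single group, CK shoot. The labels do not say what CK stands for, and give no allele, agent or treatment. Seeds spent 2 days in darkness at 28 °C to germinate, and seedlings about 48 hours in a greenhouse at 26 °C, on a cycle of 16 hours light to 8 hours dark. How many plants made up a sample is not stated in the labels, so all p-values measure only the spread between these samples. With 1 group there is no contrast between conditions, and the data bear on which TIP genes gave signal and how far the samples differed.

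Aquaporins are membrane channels for water and, in some subfamilies, for small neutral solutes. TIPs let the vacuole take up or release water quickly, so that a growing plant cell can enlarge its vacuole and buffer its cytoplasm against changes in water supply. Their subgroups differ in place and cargo: members of the TIP1 group carry water, urea and hydrogen peroxide and those of the TIP2 group water and ammonia in Arabidopsis, and TIP3 proteins sit in the protein storage vacuoles of seeds. The other plant aquaporins examined beside them are the plasma membrane PIPs, the nodulin 26-like NIPs, which include silicon channels in rice, and the small basic SIPs.

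Values are the authors' deposited log2 values from robust multi-array averaging (RMA), a method that corrects background, brings the arrays to a common distribution and gives each probe set 1 value. The highest of 17 Tag control probe sets, which match no plant gene, served as a ceiling of background and read 4.98, 4.88 and 4.97 on replicates 1, 2 and 3. The samples agreed closely over the array, with Pearson's r of 0.993 to 0.996 over all non-control probe sets, which are not independent of each other. Replicate 3 stood apart in the ribosomal RNA control probe sets, 4 of which averaged 9.59 there against 12.05 and 11.73 on replicates 1 and 2. All 8 measured leaf marker genes lay above the ceiling on every array, as did 3 of 5 shoot meristem, 2 of 7 root, 2 of 10 seed storage and 0 of 2 pollen marker genes. The share over all genes was 81.3%. Of the meristem markers 3 of 5 were lowest on replicate 2, against 36.2% of all genes, with a median shift of -0.02 there; OSH1, the most variable, read 6.25, 3.73 and 6.47, below the ceiling on replicate 2. In a tissue sample, fewer cells of a type and less RNA per cell cannot be told apart.

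Of the 8 measured TIP genes, 5 gave signal above the background ceiling on all 3 arrays and 3 lay below it on all 3. TIP1-1, TIP2-2 and TIP4-1 were bright, TIP1-2 and TIP4-2 were moderate, and TIP2-1, TIP3-1 and TIP3-2 were not above background. The share above the ceiling was 81.3% over all 17905 genes and the share below it on all arrays 15.4%, so with 8 genes the TIP count is not set apart from the array as a whole. How bright a probe set is also depends on how well its probes bind, so these levels rank no RNA amounts between genes. The median level of the 8 genes was 7.05, against 8.28 over all genes.

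**Figure D1:**
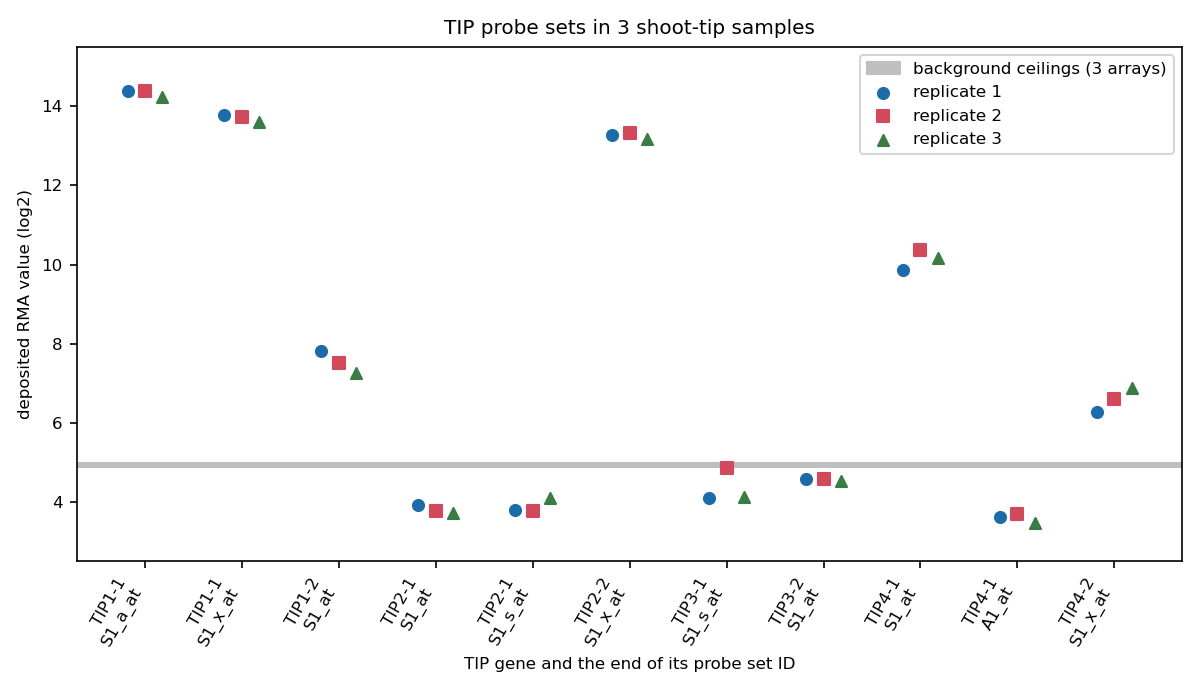
Deposited RMA values (log2, vertical axis) of the 11 TIP probe sets (horizontal axis, with the end of the probe set ID), 1 point for each of 3 arrays. The grey band spans the background ceilings of the arrays, and TIP1-1, TIP1-2, TIP2-2, TIP4-2 and 1 of 2 TIP4-1 probe sets lie above it on every array.

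TIP1-1 (LOC4331608) is the rice gamma-TIP, the water channel typical of large vacuoles in vegetative cells. Its brighter probe set read 14.40, 14.39 and 14.24 on replicates 1, 2 and 3, with a mean of 14.34 ± 0.09 (SD, n = 3) and a 95% interval of 14.24 to 14.45 from limma. Only 8 genes of the array had a brighter probe set. The 3 samples lay within 1.12-fold of each other, a spread at percentile 51.1 among probe sets of like level, here and below those in the same of 10 equal bins of mean level. The gene's second probe set, an _x_at set whose probes may also bind other transcripts, read 13.77, 13.74 and 13.61, with replicate 3 lowest on both.

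The other TIP1 gene, TIP1-2 (LOC4324303), read 7.81, 7.52 and 7.26. Its mean of 7.53 ± 0.28 (SD, n = 3; 95% interval 7.23 to 7.83) lay above the ceiling but dimmer than the array's median gene, at percentile 39.6 of gene levels. Replicate 1 was the highest and replicate 3 the lowest, 1.47-fold apart. TIP4-2, described below, had the reverse order.

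The TIP2 pair was split. TIP2-2 (LOC4340941) read 13.28, 13.33 and 13.18, a mean of 13.26 ± 0.07 (SD, n = 3; 95% interval 13.16 to 13.36), and had the 187th brightest of 17905 gene probe sets. Its samples lay within 1.11-fold of each other, and its only probe set is of the _x_at kind. TIP2-1 (LOC4330207), a gene known mainly from rice roots, read 3.79, 3.76 and 4.09 from an _s_at probe set, one shared between related transcripts, and 3.93, 3.76 and 3.73 from its other probe set. All 6 values lay below the ceiling, and replicate 3 was the highest on the first and the lowest on the second. Root markers were mostly dim in the same samples, but not all: LSI2, a silicon exporter of roots, averaged 4.04, and IRT1, an iron transporter, 3.77. By contrast LSI1, a silicon channel on the same root list, averaged 8.94, and NRAMP5, a manganese transporter, 9.96. Both lay above the ceiling on every array.

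Neither TIP3 gene, of the seed subgroup, lay above background. TIP3-2 (LOC4336464) read 4.58, 4.58 and 4.52. Its values on replicates 1 and 2 were identical to the last deposited digit, a tie that 8.76% of probe sets show on at least 2 arrays after RMA, and its SD was 0.04. TIP3-1 (LOC4348981) read 4.09, 4.85 and 4.13 from a single _s_at probe set. Replicate 2 stood 0.74 above the mean of the other arrays yet 0.03 below its own ceiling, so no fold is given. The spread of TIP3-1 was at percentile 99.2 of its level bin, the highest of any TIP probe set.

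Seed storage genes were higher on replicate 2, where all 10 measured genes of that marker list were highest, against 24.7% of all genes. Of these 10, 3 lay below the ceiling on all arrays, as did TIP3-1, so their order there is one of background values. Their mean level was 4.88, 6.62 and 4.86 on replicates 1, 2 and 3, and the median excess on replicate 2 was 1.14, or 0.23 once values under the ceiling were raised to it. RAG2, a seed allergen protein, read 4.40, 9.22 and 3.94, and GLUB5, a glutelin, 3.71, 6.63 and 3.89. GLB, the brightest gene of the list, read 10.75, 10.85 and 10.62, with an SD of 0.11. It was matched by its symbol alone, which does not show that it encodes a seed storage protein. The counts and means of the list include it. The part of the seed storage genes in the TIP3-1 value was not tested. A probe set shared by TIP3-1 and LOC9266492, and so left out of the gene's values, read 4.20, 4.36 and 4.13, also highest on replicate 2 and below every ceiling.

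The TIP4 genes both lay above background. TIP4-1 (LOC4338163), of a group that carries water and small solutes in other plants, read 9.87, 10.36 and 10.17, a mean of 10.13 ± 0.25 (SD, n = 3; 95% interval 9.89 to 10.38). Replicate 1 was the lowest, 0.40 below the mean of the other arrays, and replicate 2 the highest, 1.41-fold above replicate 1. Between replicates 1 and 2, 98.3% of probe sets in its level bin had a smaller difference. That bin is wide, with means from 9.72 to 14.68, and TIP4-1 lies near its dim end. Most of the range it is ranked against is therefore brighter than TIP4-1. The gene's second probe set read 3.62, 3.69 and 3.46, below the ceiling on all arrays, so only 1 of 2 probe sets gave signal for this gene.

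TIP4-2 (LOC4324277) read 6.27, 6.59 and 6.87 from a single _x_at probe set. Its mean of 6.58 ± 0.30 (SD, n = 3; 95% interval 6.25 to 6.91) lay at percentile 30.0 of gene levels, and its lowest value stood 1.29 above the ceiling of replicate 1. The samples were 1.52-fold apart at most, replicate 3 being the highest. Between replicates 1 and 3, 88.4% of probe sets in its level bin differed by less, and its shifts lay inside the central 95% of that bin on every array.

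**Figure D2:**
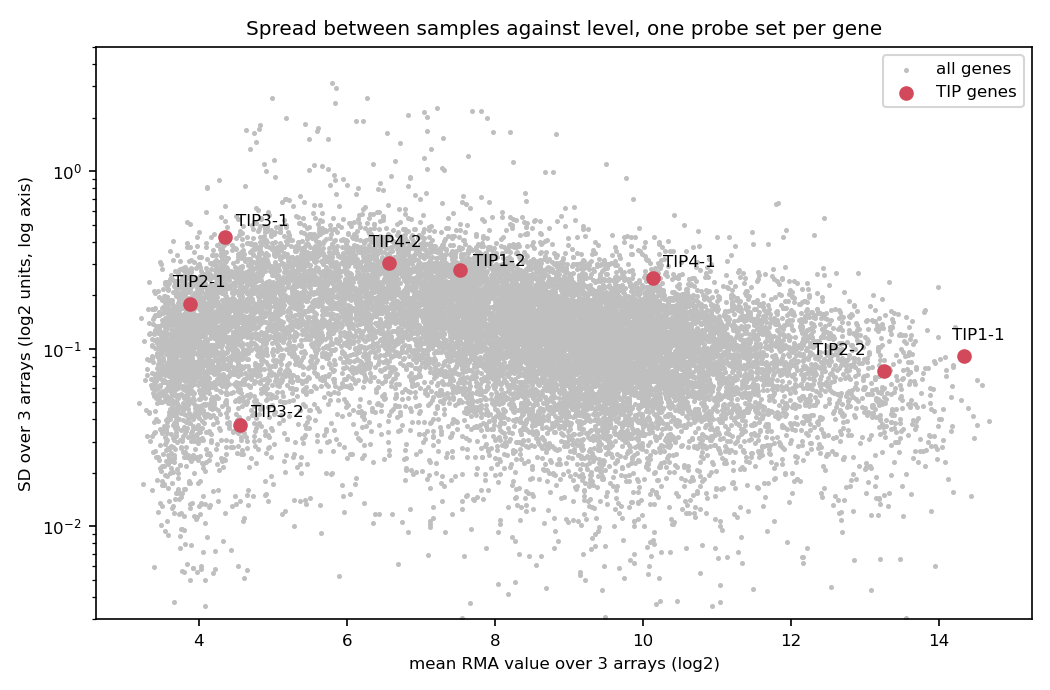
SD over 3 arrays (log2 units, log axis) against mean RMA value (log2) for all 17905 genes (grey, 1 probe set each) and the 8 TIP genes (red). TIP3-1 and TIP4-1 lie near the upper edge of genes of like level, and TIP1-1 and TIP2-2 in the middle of theirs; genes with an SD under 0.003 are not drawn.

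Among the TIP genes above background, the bright pair TIP1-1 and TIP2-2 had the lowest SDs, 0.09 and 0.07, and TIP1-2, TIP4-1 and TIP4-2 had SDs of 0.25 to 0.30. The brightest level bin, which holds both, had a median SD of 0.09, and whether signal near the top of the scale was compressed was not tested. No TIP probe set passed the test of spread: in limma's variance test, which asks whether a probe set varied more than the trend with level, 0 of 11 passed an adjusted p of 0.05 (lowest adjusted p = 0.94), as did 0 of 57258 on the whole array (0.0%). At an unadjusted p under 0.05 there were 1393 (2.43%) on the array, among them 1 TIP probe set, that of TIP3-1. The brighter TIP4-1 probe set had an unadjusted p of 0.074 in the same limma test. Among the 28611 probe sets brighter than the array median, 51 passed (0.178%), none of them one of the 6 TIP probe sets there. A p that misses the threshold does not show that the samples were alike.

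As a second description, each array was set against the mean of the other 2 and compared with the central 95% of probe sets in the same level bin. TIP1-2, TIP3-1 and TIP4-1 lay outside this range on at least 1 array, 3 of 8 genes against 9.72% of all genes; TIP3-1 lay below the ceiling on all arrays, so that 2 of the 3 were measured above background. For TIP1-2 replicate 1 stood at 0.42, where the range ended at 0.37. TIP4-1 stood at -0.40 on replicate 1 and at 0.34 on replicate 2, where the ranges ended at -0.25 and 0.28. Those ranges come from the wide brightest bin, near whose dim end TIP4-1 lies. The TIP3-1 values were 0.74 on replicate 2 and -0.40 on replicate 1, but with values under the ceiling raised to it they became -0.093 and 0.056, so they show no measured difference between samples. The count is a description of 3 samples of 1 group and has no test.

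**Figure D3:**
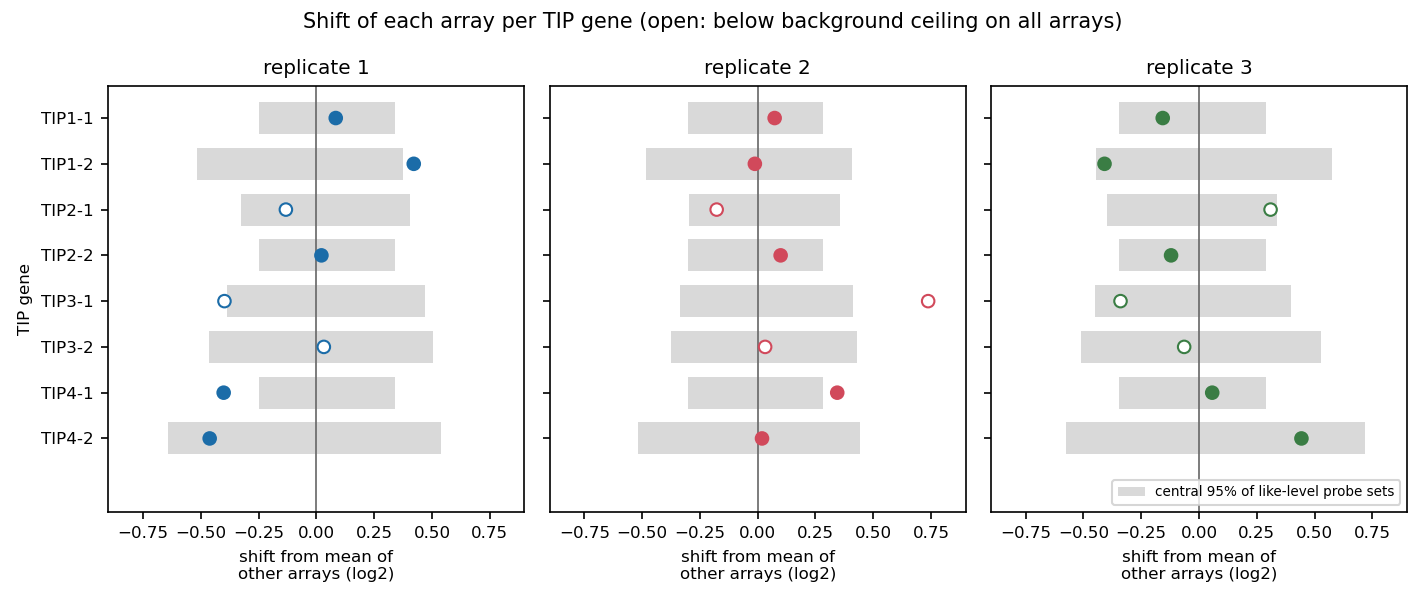
Log2 difference between each array and the mean of the other arrays (horizontal axis) for the 8 TIP genes, 1 panel per replicate. Grey bars are the central 95% of probe sets in the same level bin, and open points mark genes below the background ceiling on all arrays; TIP3-1 on replicate 2 lies farthest outside, at 0.74, and is an open point.

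The samples did not order the TIP genes in 1 direction. TIP1-2 was highest on replicate 1 and TIP4-1 lowest there, while TIP4-2 was highest and TIP1-2 lowest on replicate 3. Over the 8 genes, 2, 3 and 2 were highest on replicates 1, 2 and 3, against 22.8%, 24.7% and 49.9% of all genes, with TIP3-2 tied. The lowest value lay on replicate 1, 2 and 3 for 3, 1 and 4 of the 8, against 39.1%, 36.2% and 22.0% of all genes. On replicate 3, 3 of the 5 genes above the ceiling, TIP1-1, TIP1-2 and TIP2-2, were lowest there against 20.6% of such genes. For TIP1-1 and TIP2-2 replicate 3 stood at -0.16 and -0.12 log2 from the mean of the others, inside the range of like-level probe sets.

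Stress marker genes also differed between the samples, and their part in the TIP differences was not tested. On replicate 1, where TIP1-2 was high and TIP4-1 low, 4 of 6 dehydrin and LEA genes were highest, against 22.8% of all genes. RAB25, counted among those 4, read 3.92, 3.89 and 3.86, below the ceiling on all arrays. The mean level of the 6 genes was 7.06, 6.04 and 5.95 on replicates 1, 2 and 3. RAB21, a dehydrin induced by abscisic acid, read 10.33, 6.57 and 6.55. On replicate 3, where TIP4-2 was high, 3 of 4 fermentation genes were highest, against 49.9% of all genes. With 4 genes, that count is not set apart from the array as a whole. PDC1, a pyruvate decarboxylase and the most variable of them, read 4.04, 3.95 and 9.41. PDC3 went the other way, with 5.81, 5.79 and 5.22. On replicate 2, where TIP4-1 was high, all 8 leaf markers were highest, against 24.7% of all genes, with a median excess of 0.18. RCA, Rubisco activase, read 11.74, 12.04 and 11.48.

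Among the other aquaporins, 12 of 17 measured genes lay above the ceiling on every array and 4 below it on every array, against 81.3% and 15.4% of all genes. Their median level was 8.94 and their median SD 0.10, against 0.22 for the TIP genes and 0.12 for all genes. No test of this difference in spread was made, and the groups were not matched for level. Spread changes with level: the median SD of probe sets was 0.18 in the bin of TIP4-2 and 0.09 in the brightest bin. The TIP median also includes the 3 genes below the ceiling. Of the PIP genes 7 of 10 lay above the ceiling, with PIP1-1 brightest at 13.58 ± 0.09 (SD, n = 3), and PIP2-5 the dimmest at 3.86 ± 0.09 (SD, n = 3). PIP2-7 had the highest SD of all these aquaporins and read 4.73, 5.80 and 5.49, below the ceiling on replicate 1 alone. Of the NIP genes 3 of 5 lay above it: NIP1-1 read 12.58 ± 0.04, and the silicon channels NIP2-1 (LSI1) and NIP2-2 (LSI6) 8.94 ± 0.17 and 9.53 ± 0.19 (SD, n = 3). NIP4-1, the dimmest, read 3.53 ± 0.12. Both SIP genes lay above the ceiling, SIP1-1 at 10.26 ± 0.10 and SIP2-1 at 6.01 ± 0.07 (SD, n = 3).

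**Figure D4:**
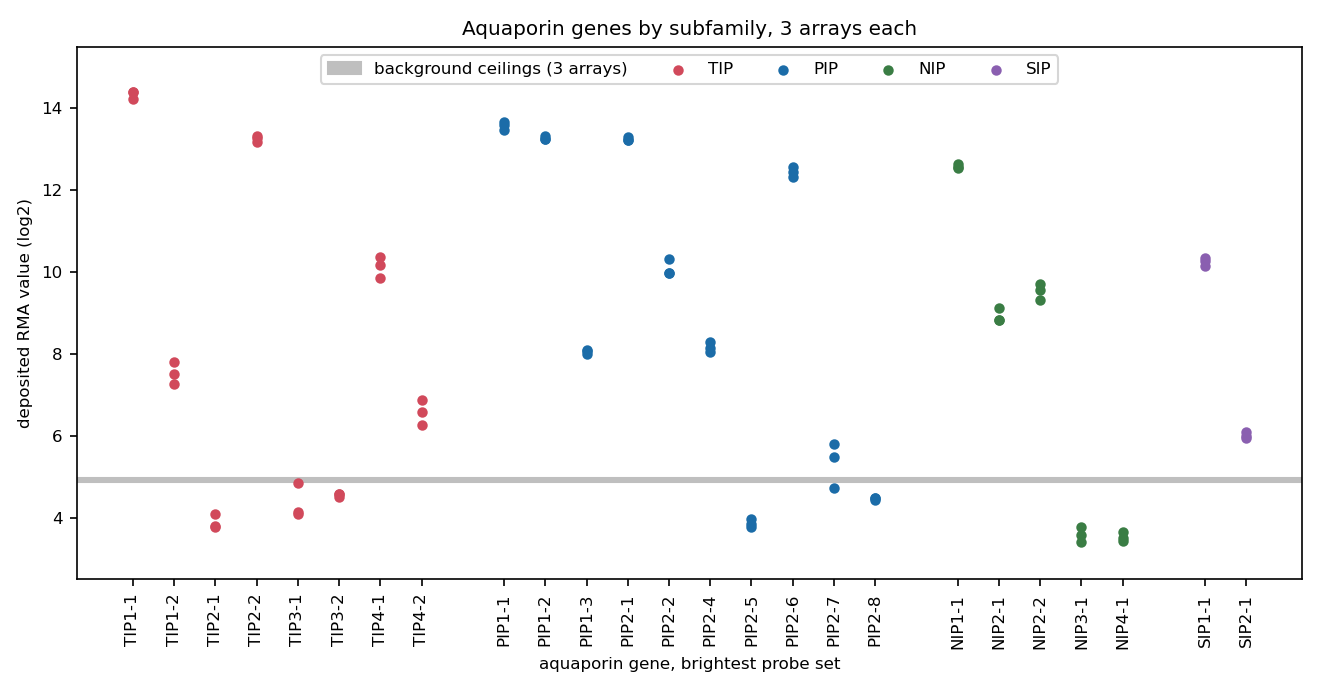
Deposited RMA values (log2, vertical axis) of the 25 measured aquaporin genes, 3 arrays each, coloured by subfamily, with the background ceilings as a grey band. Each subfamily but SIP holds both genes well above the band and genes below it, and points of 1 gene mostly overlap.

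Genes for other proteins of the vacuole membrane and lumen gave signal where they could be measured. All 10 measured genes of a list of tonoplast carriers, ion channels and vacuolar processing enzymes lay above the ceiling on every array, against 81.3% of all genes, with a median level of 9.41 and a median SD of 0.10. VIT2, a vacuolar iron transporter, was both the brightest and the most variable, with 10.87, 10.72 and 10.39. CAX1B, a cation and proton exchanger, was the dimmest at 5.82 ± 0.16 (SD, n = 3). The potassium channels TPKA and TPKB averaged 6.29 and 6.28. None of the 10 passed the variance test (limma, lowest adjusted p = 0.94). As 0 of 57258 probe sets passed it on the whole array, this count could not differ from 0. Names of proton pump subunits on this list matched no gene and were not analysed here. The same held for its NHX, TMT, TST, CLC, HMA3, ABCC1 and SPX-MFS names, so the 10 genes are only part of the list.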

How the data were processed

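Each array's deposited log2 values are probe set summaries made by the authors with RMA. The submitters' processing notes name Affymetrix Expression Console. Labelling started from 6 ug of total RNA and used biotin, per the labels' protocols. Neither versions, settings nor a genome build are stated, and coordinates are therefore left out. RMA makes the arrays alike in overall brightness and compresses low values. With 3 arrays, their number limits the precision.

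Of 57381 probe sets, 123 controls were left out of tests. The platform annotation, which can be old, gives 22436 probe sets 1 gene, 95 several and lists none for 34727; names come from it and from the symbols of assembly ASM3414082v1. A gene was taken at its brightest probe set. The 95% intervals and the variance test (F test of each variance over its trended prior) came from limma 3.58.1 in R 4.3.3, intercept only, trended and robust eBayes, Benjamini-Hochberg over all non-control probe sets; the test was checked on simulated data, and used the prior degrees of freedom shared by all probe sets. Level bins hold equal numbers of non-control probe sets ordered by mean.

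The members and lists were chosen with earlier results of these data known. Named were all members, and in each list the highest and lowest mean and highest SD; the text gives those that bear on TIP genes, and GLUB5, LSI2, NIP2-1, TPKA and TPKB were added after their values were seen. Alternatives changed the ceiling, probe sets, normalization, eBayes settings, dim probe sets and replicates. The dehydrin and fermentation lists serve as stress markers.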

Additional observations from a re-analysis of the deposited data

How the results depend on the processing

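The count of TIP genes above background was 5 with the array median or the second highest Tag control as ceiling, with all probe sets of a gene averaged, after quantile normalization, and without each replicate in turn (5 to 5). Each measured TIP gene lay above the ceiling on all 3 arrays or on none, so leaving out a replicate could not change this count. Without _x_at and _s_at probe sets it was 3, because only 5 genes were left to count, against 79.4% of all genes. The same setting left 3 of 5 genes higher on replicate 2 than the mean of the others, in place of 6 of 8. The shares of all genes were 41.5% and 41.7%. On replicate 3 it left 1 of 5 higher, in place of 3 of 8, against 65.3% and 64.9% of all genes. With values under the ceiling raised to it, 5 of 8 genes were higher on replicate 3, against 72.2% of all genes. For TIP2-1, TIP3-1 and TIP3-2 that shift was 0.037, which is only the difference between the ceilings. The rest of the count was TIP4-1 and TIP4-2. In the same way the TIP3-1 shift turned from -0.40 to 0.056 on replicate 1 and from 0.74 to -0.093 on replicate 2, the difference between the ceilings themselves. The number of TIP probe sets passing the variance test was 0 under all 6 alternatives, with lowest adjusted p-values in limma of 0.85 to 0.97. In each alternative that kept all non-control probe sets, 0 of 57258 passed on the whole array, so the TIP count there could not differ from 0. Only among the brighter probe sets did any pass, 51 of 28611. With all probe sets averaged TIP4-1 stood at 6.86 in place of 10.13 and TIP1-1 at 14.02 in place of 14.34. The count outside the range of like-level probe sets, with alternatives chosen after seeing the data, was 3 of 8 after quantile normalization. It was 2 of 5 without _x_at and _s_at probe sets. The shares of all genes were 9.82% and 10.5%. No paired analysis was possible because there is only 1 group. RMA was done before deposit, so no other background correction was tried, and TIP2-1, TIP3-1 and TIP3-2 have only an upper bound at this signal.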

Other observations

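The gene next to TIP4-2 in the order of assembly ASM3414082v1, LOC4324276, followed the same order of samples. Its probe sets read 7.90, 8.31 and 8.64, and 8.64, 8.90 and 9.09, on replicates 1, 2 and 3, against 6.27, 6.59 and 6.87 for TIP4-2. The tables used here give LOC4324276 no other name, and whether it is TIP4-3, the member that matched no entry, could not be told from them; if it is, these are values of a member and not of an unrelated neighbour. The Euclidean distance between the mean-centred values over the 3 arrays was 0.10 and 0.11, and 1.55% and 1.85% of 14554 genes above the ceiling were closer to TIP4-2. One of these probe sets and the single TIP4-2 probe set are of the _x_at kind, which may bind other transcripts, and how far they share probes was not tested. This gene was chosen after its values were seen, among 10 measured neighbours of TIP genes, and 3 samples of 1 group cannot show a relation.

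By the same distance, and among the 71 genes above the ceiling whose symbol is not a locus number, those most like TIP4-2, the member above background with the highest SD, were KIN17 (0.12), OsSPO11B (0.13) and wsl6 (0.18); 0 of the 71 lay within a distance of 0.1, so none is a close match. KIN17 read 8.50, 8.65 and 9.00, also highest on replicate 3.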
